A study of Arabidopsis thaliana with 48 samples.

Results

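The UDP-glycosyltransferase (UGT) genes of Arabidopsis thaliana were followed through repeated short light and dark periods in seedlings. The genes are the 46 probe sets whose single gene symbol starts with UGT and a number, among 22746 tested probe sets on Affymetrix ATH1 arrays. Of the tested probe sets, 13513 have a single symbol. UGT78D2 was left out by the choice of genes, and 3 further probe sets that name a UGT together with another gene were not counted. All 46 symbols matched a current locus. The number after UGT gives the subfamily, and the genes fall into 11 subfamilies: 71 (9 genes), 72 (4), 73 (7), 74 (3), 76 (8), 78 (2), 80 (1), 84 (5), 85 (5), 87 (1) and 88 (1).

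UGT enzymes move a sugar from a UDP-sugar donor onto a small acceptor molecule. Their acceptors in Arabidopsis include flavonols, hydroxycinnamic acids, lignin precursors, glucosinolate intermediates, sterols and hormones such as auxin, cytokinin, abscisic acid and salicylic acid. Glycosylation makes these molecules more soluble, changes where they are stored and, for hormones, usually lowers their activity. Many UGT genes lie side by side on the chromosomes as copies of one another.

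Seedlings were grown for 3 short days on a medium with 3% sucrose and then moved to days of 3 cycles, with light for 160 min and darkness for 320 min in each. Pools of seedlings were taken on days 4, 5 and 6 at the same minutes of the day, in 2 time courses, and hybridised to 48 arrays. Col, the reference accession, and CCA1OX, by its name an overexpressor of the morning clock gene CCA1, were each sampled in the first cycle, in light at 120 min and in darkness at 280 min, and in the third cycle, in light at 1080 min and in darkness at 1240 min. The groups held 5 arrays each except the 280 min groups, which held 6. The line labelled pif4 pil5, by its name a mutant in a pair of phytochrome-interacting factor (PIF) genes, was sampled in darkness at 280 min only (6 arrays). Hypocotyls are labelled as growing in Col at dark 280 and in CCA1OX at dark 280 and dark 1240, and as not growing in the other 6 groups, pif4 pil5 included. The labels do not say how the CCA1OX line was made or whether it is 1 transgenic line. The arrays fall into 5 array batches, of which 1 and 2 form the first array campaign and 3 to 5 the second. In Col and CCA1OX the campaigns are the same split of arrays as the 2 time courses, so these cannot be told apart. Replicates are pools from different days or time courses, so the p-values measure the spread between such pools.

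The values are log2 expression values that the authors had normalised over all arrays, from 1.24 to 13.1 over all probe sets, with array medians from 4.57 to 4.80. An array holds no read counts, and precision here depends on how many arrays a group has. Values of different probe sets are on different scales, so each gene is compared only with itself. On 3 arrays the light-induced transcription factor gene HYH went against the label. HYH was at 4.82 on Col dark 280 replicate 3, against 2.34 to 3.46 on the other 5 arrays of that group. CCA1OX dark 280 replicate 2 had HYH at 5.76 against 1.86 to 2.46, and Col light 1080 replicate 3 had it at 2.58 against 5.35 to 6.35. These arrays stay under their labels below, and the light and dark results are given with and without them. They were picked by a light-induced gene, so leaving them out can itself enlarge light and dark differences. On the other 19 light arrays HYH ran from 3.93 to 6.35, and on the other 26 dark arrays from 1.86 to 4.40. CCA1 itself and the PIF genes were without a name in the table used here, which left the lines unchecked at those genes. No marker of green tissue was named (0 of 7), and of the root markers 3 of 6 were.

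Most UGT genes varied little. The range of the 9 group means of a gene had a median of 0.53 over the 46 genes on the log2 scale and ran from 0.15 to 1.92. It was over 1 for 7 genes and under 0.5 for 20. The widest range belonged to UGT84A3, with its lowest mean in Col dark 1240 and its highest in CCA1OX light 1080. UGT78D1 (1.67), UGT74D1 (1.55), UGT76E11 (1.32) and UGT76B1 (1.11) came next. The median SD within a group was 0.26 over the genes, from 0.11 to 0.62. Over the 48 arrays, 18 of the 46 genes had a mean above 4.70, the median of all probe set means, and 28 did not. Among those 28 were UGT84A1, UGT84A3, UGT72B3, UGT73C1, UGT71C3 and UGT76E2, which are described below. No UGT probe set carried a suffix that marks probes shared with other genes.

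**Figure D1:**
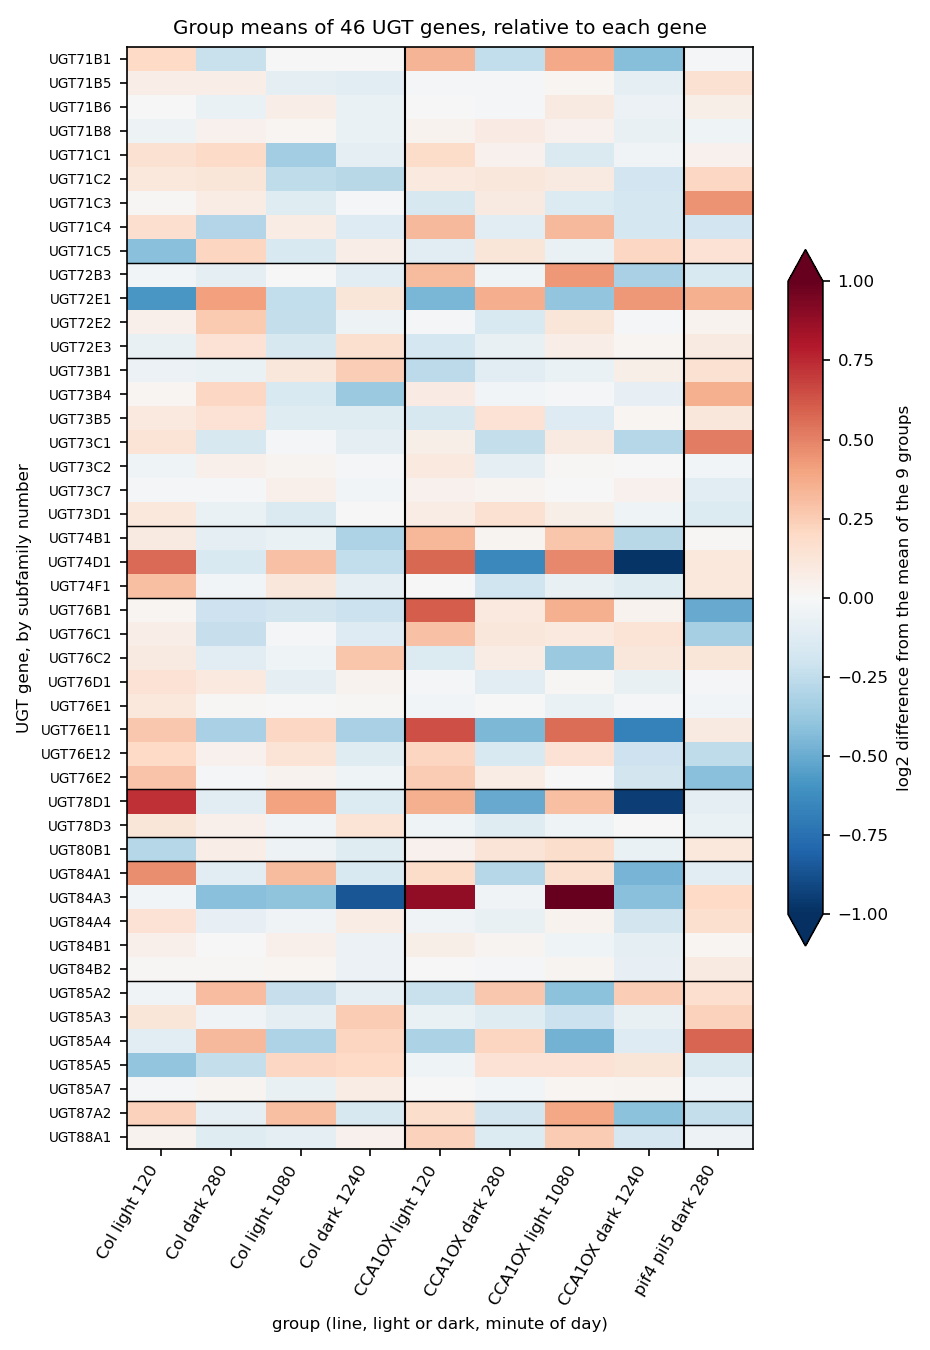
Group means of the 46 UGT genes. Each horizontal band is a gene, ordered by subfamily number, and each column is a group (line, light or dark, minute of day). Colour gives the log2 difference of a group mean from the mean of the gene's 9 group means, and differences beyond 1 take the end colour. UGT74D1, UGT76E11, UGT78D1 and UGT84A3 show the deepest alternation between light and dark columns, and UGT84B1, UGT84B2, UGT71B6 and UGT71B8 are among the pale bands.

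In CCA1OX, darkness was compared with light over both cycles (11 dark and 10 light arrays). Of the 46 UGT genes, 12 changed, 2 upward and 10 downward in darkness. This is 26.1% of the UGT genes, beside 10.2% of all probe sets tested (4.95% higher and 5.29% lower in darkness). At an unadjusted p below 0.05 there were 16 genes, beside 22.5% of all probe sets. The median change over the 46 genes was -0.08, beside 0.00 over all probe sets. By subfamily, 2 of 3 UGT74 genes and 2 of 5 UGT84 genes fell, as did 1 gene each of UGT71, UGT76 and UGT78 and the single genes UGT87A2 and UGT88A1. UGT72 had 1 gene higher and 1 lower, and UGT85 had 1 gene higher. A change was called at a limma p adjusted over all probe sets below 0.05, and all adjusted p-values below are of this kind.

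UGT74D1 (AT2G31750), which acts on auxin and its oxidised form, had the largest light and dark difference of the family in CCA1OX. Its log2 values at light 120 were 7.39, 7.49, 7.37, 7.74 and 7.81, and at light 1080 they were 7.54, 7.12, 7.26, 8.02 and 7.39. In darkness they were 6.33, 7.42, 5.78, 6.12, 6.35 and 6.08 at 280 min, and 6.14, 5.83, 5.80, 6.26 and 6.03 at 1240 min. A single dark array, replicate 2 at 280 min, lay among the light values, and it is one of the 3 arrays named above. The change was -1.34 ± 0.213 (SE), or 2.52-fold lower in darkness, with adjusted p = 2.75e-05. It was -1.15 in the first array campaign alone and -1.58 in the second, and -1.44 without the 3 arrays.

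UGT78D1 puts rhamnose on flavonols. Its values in CCA1OX ran from 5.63 to 7.38 in darkness with a median of 6.23, and from 6.90 to 8.02 in light with a median of 7.36. All 11 dark arrays were below the light mean, though the highest of them reached into the light range. The change was -1.05 ± 0.302, 2.07-fold lower in darkness, with adjusted p = 1.73e-02. UGT76E11, linked to the glucosylation of flavonoids, ran from 3.76 to 5.12 in darkness (median 4.71) and from 5.03 to 6.40 in light (median 5.58). It was 2.24-fold lower in darkness, a log2 change of -1.16 ± 0.273 (adjusted p = 2.92e-03). The ranges of UGT76E11 met only at their ends.

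UGT84A3 and UGT84A1 make glucose esters of hydroxycinnamic acids. UGT84A3 values in CCA1OX ran from 3.80 to 5.19 in darkness (median 4.31) and from 4.96 to 6.69 in light (median 5.52). Its change was -1.20 ± 0.292, 2.30-fold lower in darkness (adjusted p = 4.12e-03), and the difference between dark and light means was -0.93 in the first cycle and -1.48 in the third. UGT84A1 was a dim probe set, at 2.35 to 3.13 in darkness and 3.03 to 4.02 in light. It fell by 0.55 ± 0.140 on the log2 scale (adjusted p = 6.61e-03). UGT84A4, another gene of this kind, had a change of -0.13 and did not pass the test, and UGT84B1, which acts on auxin, and UGT84B2 stayed at -0.04 and -0.06.

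The gene with the largest rise in darkness was UGT72E1, which glucosylates lignin precursors. In CCA1OX its values ran from 5.58 to 6.96 in darkness (median 6.22) and from 4.60 to 6.12 in light (median 5.55). All 11 dark arrays were above the light mean, with an overlap between 5.58 and 6.12. The rise was 0.82 ± 0.230, or 1.77-fold (adjusted p = 1.38e-02). UGT72E2 and UGT72E3 act on the same precursors, and neither passed the test. In CCA1OX the dark mean of UGT72E2 differed from its light mean by -0.14 in each cycle, and that of UGT72E3 by 0.11 in the first and -0.04 in the last. UGT85A2 rose by 0.57 ± 0.143 (adjusted p = 5.39e-03), from light values of 6.43 to 7.09 to dark values of 6.75 to 7.70.

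The other 5 genes that changed in CCA1OX all fell, by log2 changes from -0.58 to -0.39. UGT87A2, known for an effect on flowering time, fell by 0.58 ± 0.153 (adjusted p = 9.30e-03). UGT72B3 fell by 0.56 ± 0.152 (adjusted p = 1.11e-02), so subfamily 72 held a gene that rose and a gene that fell. UGT71C4 had the smallest error of the group and fell by 0.46 ± 0.0963 (adjusted p = 8.08e-04). UGT74B1 carries out the glucosylation step of glucosinolate synthesis and fell by 0.43 ± 0.138 (adjusted p = 3.78e-02), a call that did not hold once any of 10 single arrays was dropped. UGT88A1 fell by 0.39 ± 0.120 (adjusted p = 2.68e-02), with 8.88 to 9.49 in darkness and 9.42 to 9.71 in light, and it no longer passed without any of 3 single arrays. UGT71B1, at -0.69, did not pass in this fit. It did pass with the replicate number (-0.73) or array batch (-0.69) as a block and after median centring (-0.74). It also passed with only bright probe sets and with only the groups compared, at -0.69 in each. In the second array campaign alone it passed at -1.03, and in the first it stood at -0.48 and did not.

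**Figure D2:**
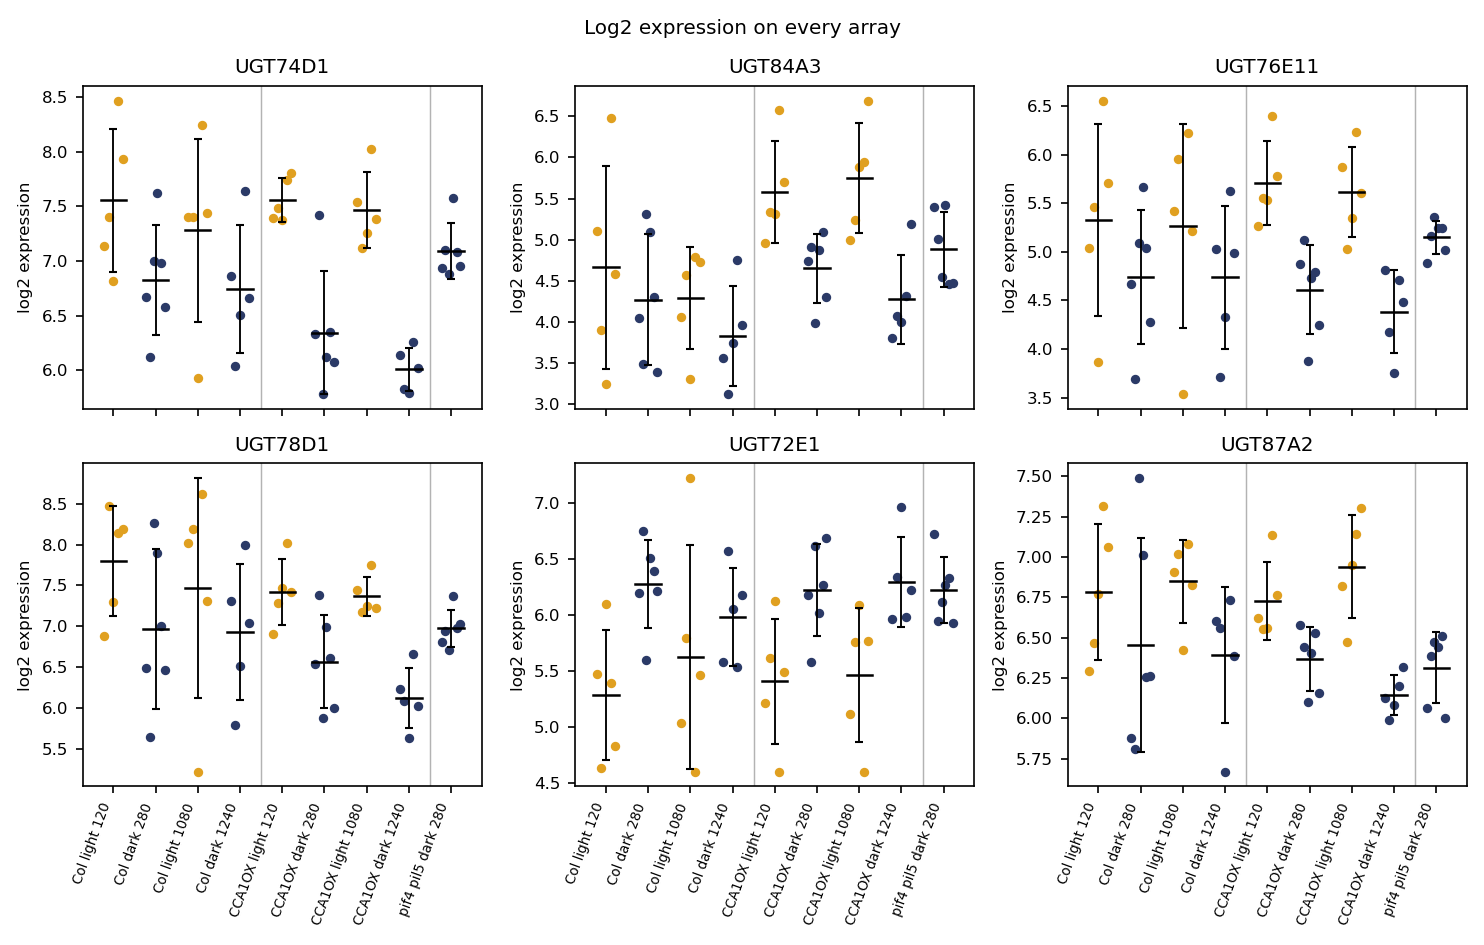
Log2 expression of the 6 UGT genes with the largest light and dark differences in CCA1OX, on every array. Gold points are light arrays, dark blue points are dark arrays, black bars are the group mean and error bars the SD over 5 or 6 arrays. For UGT74D1 the CCA1OX light arrays sit at 7.12 or higher and all CCA1OX dark arrays but 1 at 6.35 or lower, while the Col groups overlap, and UGT72E1 is the panel that runs upward in darkness.

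The 3 arrays that went against their light label did so at several of these genes too. UGT78D1 was at 8.27 on Col dark 280 replicate 3 against 5.64 to 7.90 on the other 5 arrays, and at 5.22 on Col light 1080 replicate 3 against 7.31 to 8.62 on the other 4. UGT72E1 ran the other way, at 5.60 against 6.19 to 6.75 and at 7.22 against 4.60 to 5.79 on the same arrays. On CCA1OX dark 280 replicate 2, UGT78D1 was at 7.38 against 5.88 to 7.00, and UGT72E1 at 5.58 against 6.01 to 6.69. Without the 3 arrays all 12 genes kept their call in CCA1OX. UGT71B1 (-0.70) and UGT76C2 (0.36), a cytokinin glucosyltransferase, were called as well. Only 1 of the 3 is a CCA1OX array, and the Col arrays enter this comparison only through the spread shared by all groups. UGT76C2 was at 0.35 with all arrays and did not pass.

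The same comparison in Col (11 dark and 10 light arrays) called 3 UGT genes, 1 higher and 2 lower in darkness, beside 3.24% of all probe sets (1.32% higher and 1.92% lower). The median change was -0.02 over the 46 genes and 0.01 over all probe sets, and 9 genes had an unadjusted p below 0.05, beside 13.4% of all probe sets. UGT71C5, which glucosylates abscisic acid, rose. Its Col values at light 120 were 5.05, 5.27, 5.32, 4.97 and 4.94, and at light 1080 they were 5.39, 5.32, 5.84, 5.33 and 4.99. In darkness they ran from 5.55 to 6.13 at 280 min and from 5.39 to 5.76 at 1240 min. The 280 min dark and 120 min light arrays did not overlap, and the overlap at the later times came from light replicate 3, one of the 3 arrays named above. The rise was 0.43 ± 0.106, or 1.35-fold (adjusted p = 1.42e-02), with a difference of 0.64 in the first cycle and 0.22 in the third. In CCA1OX UGT71C5 was 0.25 higher in darkness and did not pass the test (adjusted p = 0.13). In the second array campaign alone it was called in CCA1OX too, at 0.61.

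In Col UGT84A1 fell by 0.52 ± 0.140 (adjusted p = 2.61e-02), from 2.79 to 4.43 in light to 2.67 to 3.51 in darkness. UGT71C4 fell by 0.33 ± 0.0963 (adjusted p = 4.55e-02), from 6.84 to 7.67 in light to 6.59 to 7.15 in darkness. For both genes the ranges overlapped, and all 11 dark arrays lay below the light mean. UGT71C4 no longer passed in Col once any of 24 single arrays was dropped, and UGT84A1 once any of 6 was. The Col count rested on few arrays: it was 6 without Col light 1080 replicate 3, 5 without Col dark 280 replicate 3, and 1 without Col dark 280 replicate 1, Col light 1080 replicate 1, Col light 1080 replicate 4 or Col light 120 replicate 5.

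Without the 3 arrays, which were picked by the light-induced HYH, 8 UGT genes changed in Col. The 5 added were UGT72E1, up by 0.94, and UGT78D1 (-1.10), UGT74D1 (-0.82), UGT76E11 (-0.81) and UGT87A2 (-0.55), all of which were called in CCA1OX with all arrays. With all arrays these genes stood in Col at 0.68, -0.69, -0.63, -0.56 and -0.39, with the same signs. The share of all probe sets called without the 3 arrays is not given here. The larger count is thus not shown to be particular to UGT genes. With the replicate number as a block, UGT74D1 passed in Col at -0.65.

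The lines were then compared directly. Both lines called UGT84A1 and UGT71C4, which is 2 of the 3 genes of Col and 2 of the 12 of CCA1OX. The 12 genes called in CCA1OX had the same sign in Col and a smaller change there, but they had been picked by their CCA1OX values. Over the 46 genes 36 had the same sign in both lines, with a Pearson r of 0.88 across genes, given as a description since the genes share arrays. The difference between lines was tested itself, and limma called 0 of 46 genes, beside 0.0044% of all probe sets. At an unadjusted p below 0.05 there were 3 genes, beside 3.77% of all probe sets, namely UGT74D1 with a difference of -0.70 ± 0.302, UGT72B3 with -0.47 ± 0.215 and UGT88A1 with -0.38 ± 0.169. A gene called in one line and not in the other was thus not shown to differ between them.

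Of the 46 genes, 29 lie in 12 chromosomal clusters in which each UGT gene is at most 3 protein-coding genes from the next, by the order of loci in the RefSeq annotation. Direct neighbours could behave differently. UGT71C5 (AT1G07240), UGT71C4 (AT1G07250) and UGT71C3 (AT1G07260) follow one another, and in Col the first rose by 0.43, the second fell by 0.33 and the last had a change of 0.08 without passing. In the row of UGT84A1 (AT4G15480), UGT84A3 (AT4G15490) and UGT84A4 (AT4G15500), the first 2 fell in CCA1OX and UGT84A4 did not pass. UGT85A2 rose in CCA1OX by 0.57, while its neighbours UGT85A7, UGT85A5 and UGT85A3 had changes of -0.01, 0.09 and 0.04 and did not pass. With 1 other gene between them, UGT76E11 fell by 1.16 in CCA1OX and UGT76E12 was at -0.36, which did not pass. The difference between neighbours was not tested. In 8 of the 12 clusters no gene passed the light and dark test in either line.

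**Figure D3:**
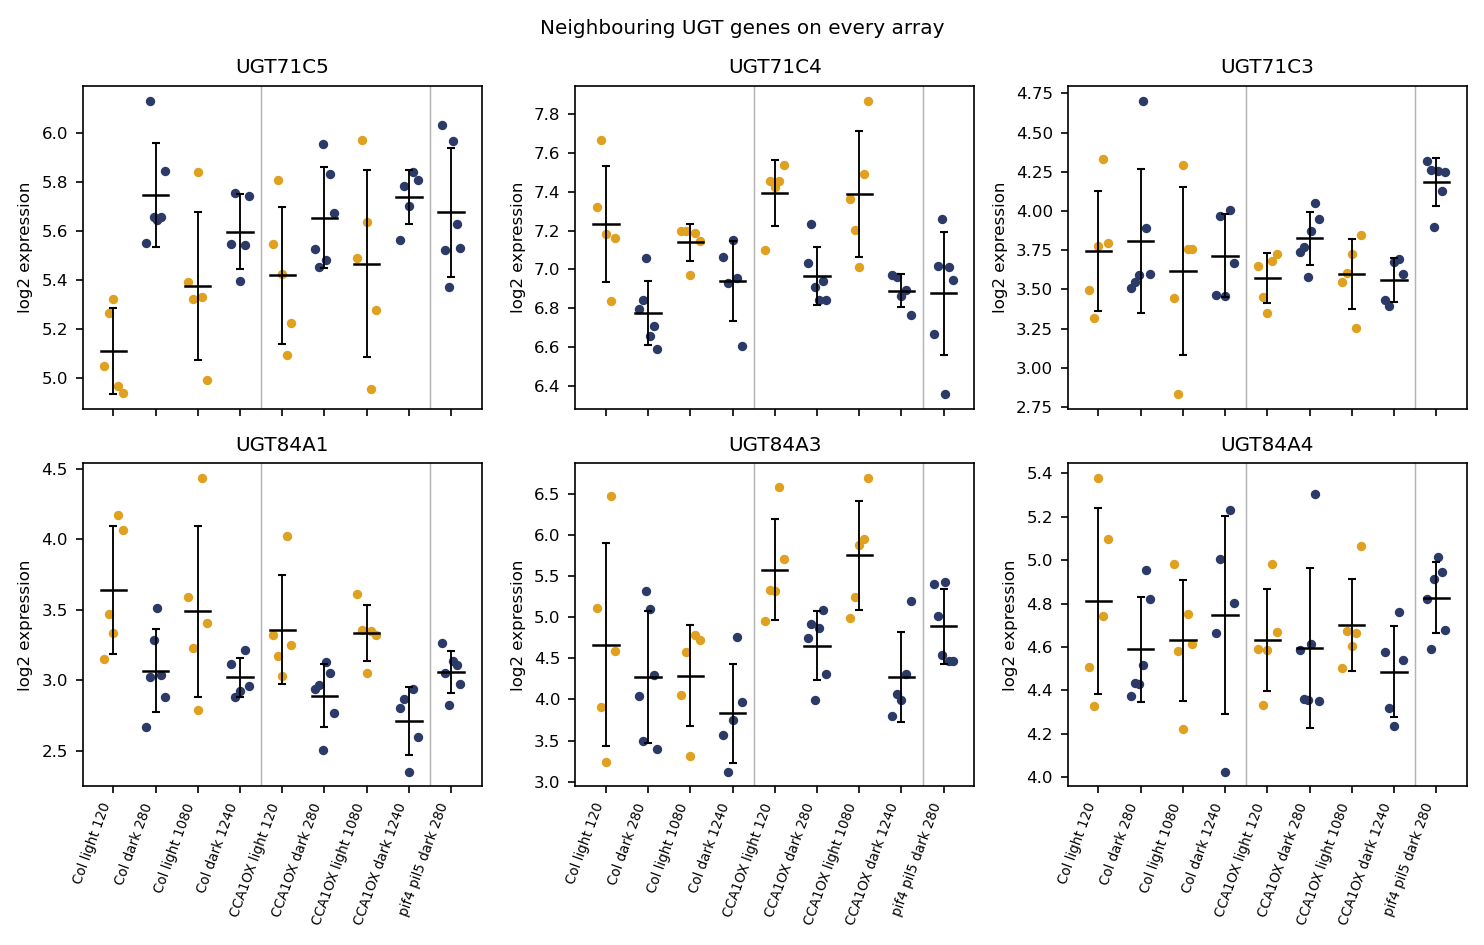
Log2 expression on every array for 3 adjacent UGT71C genes (top) and 3 adjacent UGT84A genes (bottom). Gold points are light arrays, dark blue points dark arrays, black bars the group mean and error bars the SD over 5 or 6 arrays. UGT71C5 steps up from light to darkness in Col where UGT71C4 steps down, and UGT84A1 and UGT84A3 fall in CCA1OX darkness where UGT84A4 shows overlapping groups.

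Genes of the pathways that make UGT acceptors were looked up for comparison, but few had a name here. Of the flavonoid and anthocyanin genes 3 of 15 were named. CHIL, a chalcone isomerase-like protein of flavonoid synthesis, fell by 1.42 ± 0.372 in Col darkness (adjusted p = 2.18e-02) and fell by 1.71 ± 0.372 in CCA1OX darkness (adjusted p = 1.32e-03). AT5MAT, an anthocyanin malonyltransferase, fell by 1.81 ± 0.513 in CCA1OX (adjusted p = 1.51e-02) and stood at -1.15 in Col without passing. DFR, an enzyme of anthocyanin synthesis, had -1.10 in Col and -1.21 in CCA1OX and passed in neither. UGT78D1 and UGT76E11 fell beside CHIL and AT5MAT in CCA1OX.

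Of the phenylpropanoid genes 2 of 18 were named, and HCT, a hydroxycinnamoyl transferase of lignin synthesis, fell by 0.55 ± 0.117 in CCA1OX (adjusted p = 1.13e-03) while ALDH2C4 did not pass. In Col HCT was at -0.35 and did not pass. The only named cytokinin gene of 13, the response regulator ARR15, fell by 0.39 in CCA1OX (adjusted p = 3.90e-02). In Col ARR15 was at -0.15 and did not pass, and it was dim, with group means from 2.70 to 3.17. The only named glucosinolate gene of 17, BCAT4, did not pass in any comparison. None of the 9 abscisic acid genes and none of the 6 salicylic acid genes on the lists had a name.

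Of the 3 root markers with a name, AT4G28100 fell by 0.42 in Col darkness (adjusted p = 2.71e-02) and fell by 0.52 in CCA1OX darkness (adjusted p = 1.50e-03), and EXPA7 and EXPA18 did not pass, with changes between -0.09 and 0.10. The summed linear level of the 3 ran from 157 to 354 on Col light arrays, 153 to 371 on Col dark arrays, 149 to 237 on CCA1OX light arrays and 96.0 to 230 on CCA1OX dark arrays. Its part in the UGT results was not tested. In pooled seedlings, fewer cells of a type and less RNA per cell cannot be told apart.

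Darkness at 280 min was compared with darkness at 1240 min. Col is labelled as growing at 280 min and as not growing at 1240 min. These times also lie in different cycles of the day, so growth and time of day cannot be told apart in Col. In Col limma called 0 of 46 genes, beside 0.101% of all probe sets, with 2 genes at an unadjusted p below 0.05 (5.28% of all probe sets). These were UGT85A5, at 4.35 (median) at 280 min against 4.67 at 1240 min, and UGT71C2, at 3.84 against 3.47, and the arrays of both times overlapped for both genes. The 46 changes ran from -0.44 to 0.58, with a median of 0.05 beside 0.01 over all probe sets. In CCA1OX, which is labelled as growing at both times, limma again called 0 genes, beside 0% of all probe sets, with 0 at an unadjusted p below 0.05 (1.33% of all probe sets). The changes there ran from -0.17 to 0.44. The difference between the lines in this comparison gave 0 called genes by limma, beside 0% of all probe sets, and 0 at an unadjusted p below 0.05 (1.68% of all probe sets).

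CCA1OX was compared with Col over the 4 times, with 21 arrays a line. Of the 46 genes 3 rose and 0 fell by the limma test, beside 10.9% of all probe sets (5.84% higher and 5.03% lower), and 7 genes had an unadjusted p below 0.05 (24.7% of all probe sets), 3 of them lower in CCA1OX. The 3 genes are 6.52% of the UGT genes, a share below that of all probe sets. The largest was UGT84A3. Its Col values ran from 3.12 to 6.47 with a median of 4.06 and its CCA1OX values from 3.80 to 6.69 with a median of 4.99, and 17 of 21 CCA1OX arrays were above the Col mean. The rise was 0.80 ± 0.206, or 1.74-fold (adjusted p = 8.97e-03). By time the difference was 0.91 at light 120, 0.38 at dark 280, 1.46 at light 1080 and 0.44 at dark 1240. The mean difference was thus larger at both light times. The test above of the light and dark change between lines, at -0.78 for UGT84A3, did not call the gene, so this order was not established.

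UGT76B1, which glucosylates isoleucic acid and salicylic acid, was 0.42 ± 0.121 higher in CCA1OX (adjusted p = 1.89e-02). Its medians were 7.35 and 6.88, 18 of 21 CCA1OX arrays lay above the Col mean, and the highest value, 8.60, came from CCA1OX light 120 replicate 1. UGT76C1, which glucosylates cytokinins, was higher by 0.24 ± 0.0787 (adjusted p = 4.35e-02), with medians of 5.58 and 5.32. UGT76C1 no longer passed once any of 23 single arrays was dropped, or the 3 arrays that went against their label together. Without those 3 arrays UGT78D1 (-0.54) and UGT74D1 (-0.39) were called lower in CCA1OX. In the first and second array campaigns UGT84A3 stood at 0.81 and 0.76, UGT76B1 at 0.46 and 0.38, and UGT76C1 at 0.20 and 0.28. UGT84A3 and UGT76C1 passed in neither campaign alone.

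The root markers EXPA7 and EXPA18 stood at -0.53 and -0.55 in CCA1OX against Col without passing (adjusted p = 0.0633 and 0.055), and their part in the line results was not tested. At dark 1240, where hypocotyls are labelled as growing in CCA1OX and not in Col, limma called 0 of 46 genes, beside 0.62% of all probe sets. At an unadjusted p below 0.05 (6.98% of all probe sets) there was 1 gene, UGT74D1. Its CCA1OX values were 6.14, 5.83, 5.80, 6.26 and 6.03, and its Col values were 6.86, 6.04, 6.51, 7.64 and 6.67. The highest CCA1OX arrays overlapped the lowest Col array, and the difference was -0.73 ± 0.308 (adjusted p = 0.561).

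Last, pif4 pil5 was compared with Col at dark 280, with 6 arrays each. Limma called 0 of 46 UGT genes, beside 0.607% of all probe sets, and 3 genes had an unadjusted p below 0.05 (14.4% of all probe sets). The median change was 0.01 over the UGT genes and 0.03 over all probe sets, with a range from -0.40 to 0.67. In simulated data for this comparison, with all 22746 probe sets, limma recovered 89% of genes changed by 1 on the log2 scale, with 9 false calls. The simulated noise was drawn separately for each array, without array batches or time courses. Changes below 1 were not simulated, so the recovery of changes as small as those of the UGT genes is not known.

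UGT73C1, a dim probe set with a mean of 2.49 over the 48 arrays, had the largest difference. The gene is known for acting on cytokinins and on foreign compounds. Its values in pif4 pil5 ran from 2.68 to 3.37 (median 3.01) and in Col from 1.94 to 2.78 (median 2.26), so the groups overlapped at their ends. The difference was 0.67 ± 0.227 (adjusted p = 0.154). It passed with the replicate number as a block, but both numbers of pif4 pil5 lie in the second array campaign while those of Col lie in different campaigns, so the number does not pair these samples by campaign. In the second campaign alone the difference was 0.43 and did not pass. UGT76E2 ran from 3.74 to 4.14 in pif4 pil5 and from 4.21 to 4.81 in Col, without overlap, with a difference of -0.40 ± 0.162 (adjusted p = 0.238). UGT71C3 ran from 3.90 to 4.32 against 3.51 to 4.70, with a difference of 0.38 ± 0.175 (adjusted p = 0.31), and was called when Col dark 280 replicate 4, the highest Col array, was left out. All 6 pif4 pil5 arrays are in array batch 5 with 6 other arrays, of which 1 is Col dark 280, and with array batch as a block UGT73C1 stood at 0.74 and did not pass. The summed root marker level ran from 114 to 257 in pif4 pil5 and from 168 to 253 in Col dark 280, and its part was not tested.

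**Figure D4:**
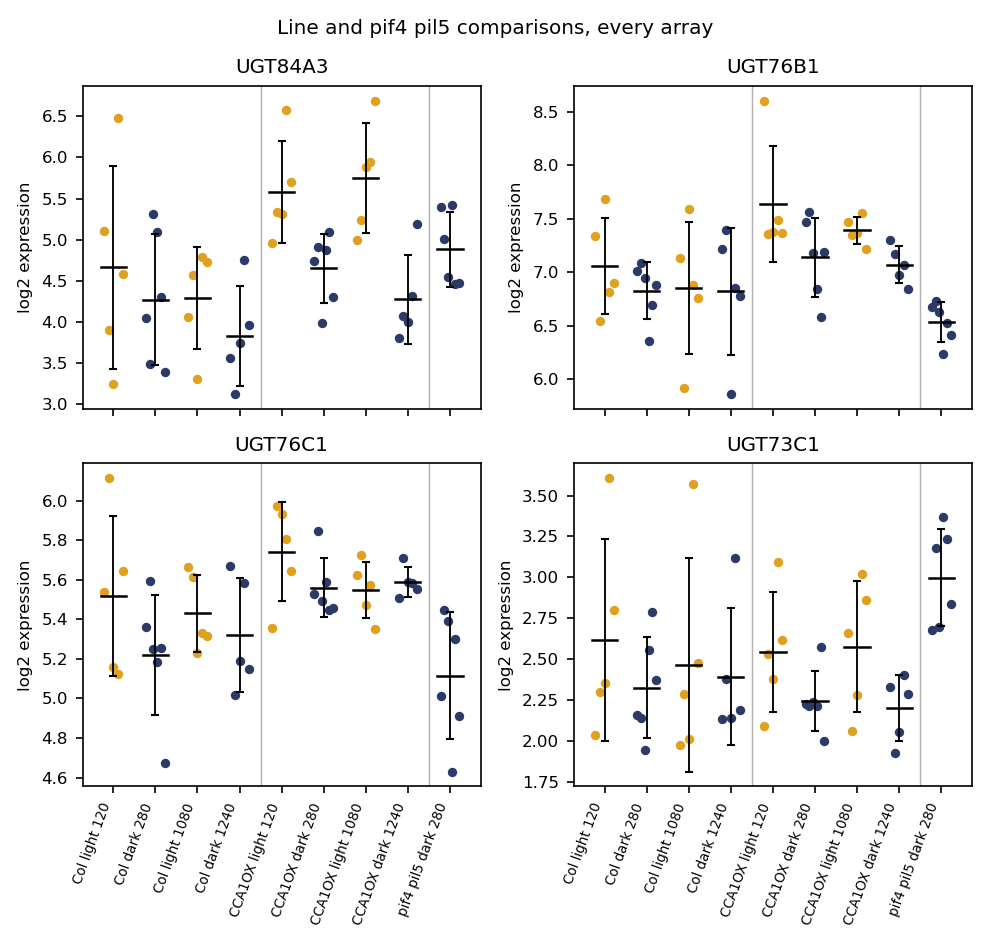
Log2 expression on every array for the 3 UGT genes that were higher in CCA1OX than in Col and for UGT73C1. Gold points are light arrays, dark blue points dark arrays, black bars the group mean and error bars the SD over 5 or 6 arrays. UGT84A3 is highest at the CCA1OX light times, UGT76B1 and UGT76C1 show small shifts with overlapping points, and the pif4 pil5 values of UGT73C1, from 2.68 to 3.37, lie above the Col dark 280 mean.

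Neither the 7 genes of subfamily 73 nor the sterol glucosyltransferase gene UGT80B1 passed the test in any of the 9 comparisons with all arrays and no block. In CCA1OX the light and dark changes of subfamily 73 ran from -0.34 for UGT73C1 to 0.22 for UGT73B5. Other hormone-related genes without a call in any comparison with all arrays were UGT71B6 (abscisic acid), UGT74F1 (salicylic acid), UGT84B1 (auxin) and UGT76C2 (cytokinin). UGT71B6 and UGT84B1 are dim, with mean values of 2.26 and 2.24 over the 48 arrays and group means within 0.16 and 0.15 of one another.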

How the data were processed

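The deposited table holds log2 expression values that the authors made by RMA with the affy package (no version), per the submitters' processing notes, for 22810 probe sets. Here 64 control probe sets were left out. Symbols came from GEO's platform annotation, and locus order from RefSeq (TAIR10.1). limma 3.58.1 in R 4.3.3 fitted 1 mean per group over 48 arrays (39 residual degrees of freedom, median residual SD 0.244), and two-sided p-values were adjusted by Benjamini-Hochberg over 22746 probe sets at 0.05. The fit was tested on simulated data.

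The genes and lists were chosen with earlier results of these data known. Each UGT gene called in a comparison is named, with array values for up to 6 per comparison, and other genes singled out were chosen after their values were seen. The title's replicate number marks the time course, and with it the array campaign, for Col and CCA1OX. Deviations from group means correlated at 0.297 (mean) for the same number and day, 0.0781 for the same number and another day, and -0.158 for another number. Alternatives were a block on replicate number or array batch, 45 arrays, median centring, bright probe sets only, only the groups compared, each campaign alone, and each array left out.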

Additional observations from a re-analysis of the deposited data

Results flagged for a closer look

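For the 15 UGT genes that changed in at least 1 comparison, each group's extreme array was set against the gap expected in groups of 5 or 6. An array stood apart in 7 of 135 sets, which is close to the 1 in 20 that chance gives.

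UGT74D1 stood apart at 7.42 on CCA1OX dark 280 replicate 2, above 5.78 to 6.35 on the other 5 arrays, and UGT76C1 on the same array at 5.85, above 5.45 to 5.59. That array is one of the 3 whose HYH value went against the light label. UGT71C4 was lowest at 6.97 on Col light 1080 replicate 3, another of the 3, against 7.15 to 7.20. UGT71C4 was also lowest at 7.10 on CCA1OX light 120 replicate 1, against 7.43 to 7.54, and UGT76B1 was highest on that array, at 8.60 against 7.36 to 7.49. UGT74D1 reached 7.58 on pif4 pil5 replicate 4, above 6.88 to 7.10. UGT88A1 fell to 9.08 on Col dark 1240 replicate 2, below 9.43 to 9.53.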

How the results depend on the processing

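No called change of a UGT gene turned its direction in the alternatives run. The counts below are of UGT genes only, and the share of all probe sets called in each alternative is not given here. A shift in a count is thus not shown to be particular to UGT genes. The Col light and dark count of 3 was 1 with only the groups compared, 0 in the first campaign, 5 in the second and 8 with 45 arrays, and median centring gave 1 higher and 1 lower gene in place of 1 and 2. The CCA1OX light and dark count of 12 was 0 in the first campaign. In the second, UGT74B1, UGT84A1, UGT85A2 and UGT88A1 lost their call, and UGT71B1 (-1.03), UGT71C5 (0.61) and UGT76B1 (-0.49) gained one. The CCA1OX against Col count of 3 was 0 in the first campaign and 9 in the second, where UGT84A3 (0.76) and UGT76C1 (0.28) were not called. Genes called only there and lower in CCA1OX were UGT78D1 (-0.68), UGT74D1 (-0.61), UGT73B1 (-0.49), UGT74F1 (-0.43) and UGT76C2 (-0.32). Those gained as higher were UGT85A5 (0.54), UGT72B3 (0.37) and UGT71C4 (0.32). Of these, UGT78D1 and UGT74D1 were also called with 45 arrays. The pif4 pil5 count of 0 was 1 with the replicate block. The block gave 4 genes in Col and 13 in CCA1OX and changed no other call. Array batch as a block gave 4 genes in Col, 13 in CCA1OX and 4 for CCA1OX against Col. The cause of these shifts was not tested. Each campaign holds 24 arrays, and those of the second include the 6 of pif4 pil5. All 3 arrays that went against their light label are in the first campaign. Leaving out each array gave 1 to 6 genes for Col, 10 to 13 for CCA1OX, 2 to 4 for CCA1OX against Col, 0 to 1 for pif4 pil5, and 0 for the other comparisons. pif4 pil5 has no first-campaign arrays. Testing only bright probe sets left UGT72B3, UGT84A1 and UGT84A3 untested.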

Other observations

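In Col the day 4 array of the second time course was the highest array of all 4 groups for 6 of the 46 UGT genes. These were UGT71B1, UGT73B5, UGT74D1, UGT74F1, UGT76E11 and UGT84A1. For 16 genes it was the highest in none of the Col groups, and for no gene was it the lowest in all 4. In CCA1OX it was the highest in all 4 groups for 1 gene, UGT71B1, and in none for 15. The share over all probe sets was not counted. UGT74D1, for example, was at 8.47, 7.63, 8.24 and 7.64 on those Col arrays, against highest values of 7.94, 7.00, 7.44 and 6.86 on the other arrays of the same groups. This pattern was seen in the data and was not tested.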
